A study of Mus musculus with 12 samples.

Results

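The comparison is between cells given a plasmid for wild-type DICER1 (WT, 3 arrays) and cells given the same plasmid backbone with GFP (3 arrays), the control group. These are 6 of the 12 arrays of a study in which the same cells also received DICER1 carrying the substitution D1709N or G1809R, 3 arrays each. The samples were taken by their titles, and no measured value was used to choose them. All groups were DKO172 cells, which come from a fallopian tumor of a female mouse. The cells had been seeded at 200000 per well, transfected the next day with 2 µg of a pLD-hygro-EnVM plasmid, moved to new plates after 24 h and selected for 84 h with 300 µg/ml of hygromycin, so RNA was taken 108 h after transfection from cells that had survived the drug. The promoter of the insert and the species of its DICER1 sequence are not stated in the labels. The labels number the replicates but do not say whether they were separate cultures, so the p-values measure only how far these samples spread, and that spread may be technical. In such bulk RNA, fewer cells of a type and less RNA per cell cannot be told apart.

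DICER1, an RNase III enzyme, trims hairpin precursors to mature microRNAs, which are then loaded into Argonaute proteins and hold down the mRNAs whose 3′ ends pair with their seed. Interferons are secreted proteins that cells make on sensing foreign or unusual nucleic acids, and they switch on a large set of antiviral genes through factors that include STAT2 and IRF9. Proliferating cells express the genes of DNA replication and mitosis in waves, under E2F factors before S phase and under complexes that read the CHR element of promoters before mitosis.

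Every level below is a log2 intensity minus that of the array's 75th percentile, so that 1 unit is a 2-fold difference and the level of a gene is compared between arrays only. Slide 1 held replicate 1 of each group, and slide 2 held the others. The share of probes well above background was 82.7%, 58.7% and 54.2% on WT arrays 1, 2 and 3, against 71.3%, 62.6% and 55% on GFP arrays 1, 2 and 3. WT array 1 thus had the highest share, and it correlated at 0.983 with GFP array 1 of its own slide, against 0.980 and 0.977 with WT arrays 2 and 3. Counts that rest on it are therefore given without it as well.

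Of 24183 genes and transcripts tested, 4300 (17.8%) differed between WT and GFP at an adjusted p under 0.05, by limma with the group and the replicate number as terms and Benjamini-Hochberg adjustment over all of them. WT cells had 2219 higher (9.18%) and 2081 lower (8.61%). The median of all genes was 0.04. Each change below is the log2 difference WT minus GFP ± its standard error in that fit, with 3 arrays in each group. Without the replicate number in the fit, 713 were called (2.95%), 287 of them higher (1.19%) and 426 lower (1.76%), and all 713 were among the 4300. Where a gene was not called without that term, called the block below, its adjusted p from that fit is given as well. Most changes were small: the median rise among called genes was 1.54-fold and the median fall 1.45-fold, while 499 genes were at least 2-fold higher and 209 at least 2-fold lower. At 4-fold the counts were 133 higher and 15 lower, and at 16-fold 21 higher and 1 lower, so the largest changes were nearly all rises. The excess of rises depended on the level. Among the 6046 genes and transcripts of lowest level (-6.83 to -3.25), 231 were called at least 2-fold higher and 49 lower. Among the 6046 of highest level (2.37 to 8.45), these counts were 37 and 32. At the levels between, they were 149 and 60, then 82 and 68. The excess of rises at 2-fold thus lay mostly among dim genes. The single fall past 16-fold was the long noncoding RNA 2310065F04Rik, at -3.27, -3.81 and -3.29 in WT, against 1.83, 3.11 and 2.54 in GFP, a change of -5.95, named here after its value was seen. Of the 4300, 2958 had no overlap between the 3 WT and the 3 GFP arrays. Over all 24183, called or not, the groups did not overlap for 2332 with WT higher and 2474 with WT lower. A lack of overlap is thus common and adds little for a single gene. Among the called genes named below, the groups overlapped for Ano1, Arg1, C4b, Cacna1s, Ccl7, Ccnd1, Cdc6, Cdkn1b, Cnn1, Gsr, Id1, Krt19, Stat2, Uchl1 and Usp18.

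Leaving out GFP array 1 gave 1335 higher and 1206 lower, and leaving out GFP array 3 gave 1249 and 1079. For gene lists with a count of 5 or more that moved by over 1.5 times when any of the 12 arrays was left out, the lowest and highest of these 12 counts follow the count in brackets, and the lowest came in most cases without GFP array 1 or GFP array 3.

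By kind of transcript, 1482 of 14263 protein-coding genes were higher (10.4%) and 1695 lower (11.9%), whereas 54 of 347 long noncoding RNAs were higher (15.6%) and 12 lower (3.46%), and under the median scaling described next 16 of these RNAs were higher and 35 lower. Scaling the arrays to their median in place of the 75th percentile moved every change by -0.28, which gave 744 genes higher and 5043 lower, so 12.9% of the calls were rises, against 51.6%. Rises smaller than that shift therefore have no settled sign, and lists described below with more rises than falls carry their counts under median scaling where their split turned.

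**Figure D1:**
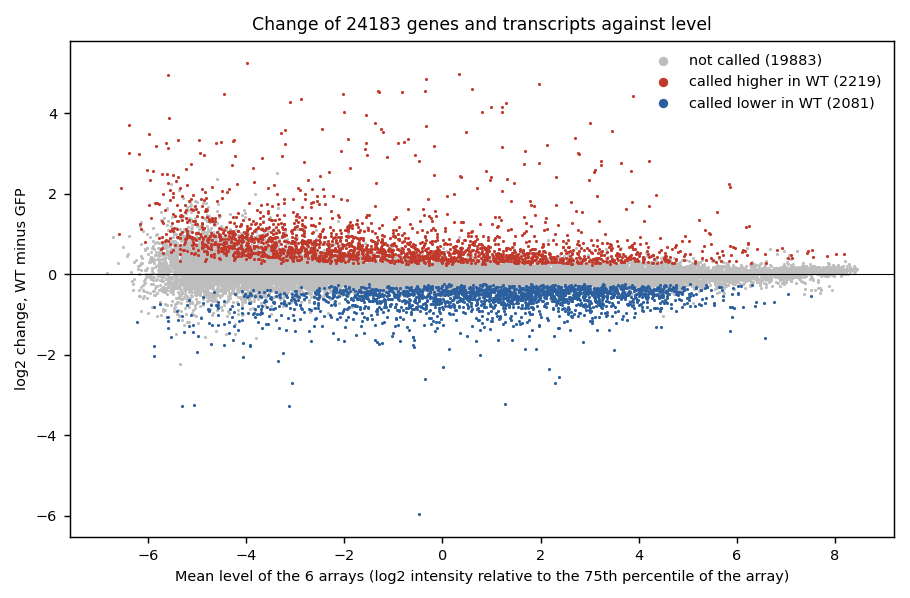
Change of each of the 24183 genes and transcripts (log2, WT minus GFP, vertical) against its mean level over the 6 arrays (log2 intensity over the array's 75th percentile, horizontal), with genes called higher in red, called lower in blue and the others in grey. Rises past 4-fold (133) outnumber falls past 4-fold (15).

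The probe annotated to the mouse Dicer1 gene stood at 0.53, 0.09 and 0.20 in WT, against 1.36, 1.02 and 1.02 in GFP, a change of -0.86 ± 0.10 (adjusted p = 0.00129). All WT arrays lay below all GFP arrays. Whether the probe can read the insert is not stated in the labels, so this value checks neither group's label.

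Many of the largest rises were in genes of the interferon response. Interferon beta itself, Ifnb1, reached -1.43, -2.64 and -2.57 in WT, against -8.27, -5.31 and -6.49 in GFP, a change of 4.48 ± 0.62 (adjusted p = 0.00248). It was well above background on 1 of 3 GFP arrays, so the size of this change rests in part on signals below background. Families known to answer to interferon had most of their members called higher. Of 19 measured genes of the IFIT, IFITM and ISG15 system, antiviral effectors and the ubiquitin-like modifier with its enzymes, 14 were called higher and none lower, with a median of 2.34. The OAS list, named for enzymes that make the 2-5A signal when they bind double-stranded RNA, had 9 of 11 members higher (median 2.82), and the guanylate-binding and immunity-related GTPases, which attack pathogen vacuoles, 11 of 16 (median 2.43). In the Ifi200 family, whose HIN domains bind DNA, 5 of 6 were higher (median 3.13). All these families had no member called lower, against 8.61% of all genes and 11.7% of those with a symbol, and their counts were the same without WT array 1. Without the replicate block 4, 2, 4 and 4 of their members were called.

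Oasl1, an OAS-like protein, stood at 4.26, 3.94 and 1.66 in WT, against -1.67, 0.27 and -1.21 in GFP. It changed by 4.16 ± 0.54 (adjusted p = 0.00187), with no overlap between the groups, and GFP array 2 was the highest of the controls. Ifi207 had 0.68, 1.46 and -1.51 in WT, against -4.67, -3.53 and -4.60 in GFP, a change of 4.47 ± 0.51 (adjusted p = 0.00122). In both genes WT array 3 was the lowest of its group, still above every GFP array. The same order held for Gbp2, a guanylate-binding protein, with 0.59, 0.90 and -1.24 in WT, against -3.80, -2.29 and -3.46 in GFP, a change of 3.27 ± 0.37 (adjusted p = 0.00122). Cmpk2, a mitochondrial nucleotide kinase encoded beside the antiviral gene Rsad2, rose by 3.60 ± 0.50 (adjusted p = 0.0025). Uba7, the enzyme that activates ISG15 for conjugation, rose by 3.53 ± 0.33 (adjusted p = 0.000551), and Irgm1, a GTPase that guides its family to vacuoles, by 2.77 ± 0.29 (adjusted p = 0.000924). Isg15 itself changed by 4.42 ± 0.52 (adjusted p = 0.00139, and 0.0803 without the block), and Ifit1, which binds RNA lacking the host cap mark, by 4.61 ± 0.59 (adjusted p = 0.00187, and 0.0716 without the block). Ifit2, of the same cluster as Ifit1, stayed at 0.24 ± 0.14 (adjusted p = 0.292) and did not pass the test. Several of these genes have near-identical neighbours (Ifit3 and Ifit3b, Oas1a and Oas1g, Tgtp1 and Tgtp2, Trim30a and Trim30d), and which copy a probe reads is uncertain there.

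The size of these rises differed between arrays. The median of the OAS list was 4.04 between WT array 1 and GFP array 1, 2.18 in the second pair and 2.25 in the third, and the IFIT list gave 3.09, 2.05 and 1.61, beside 0.06, 0.02 and 0.02 for all genes. The first pair was thus the highest, and every pair was well above the median of all genes.

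**Figure D2:**
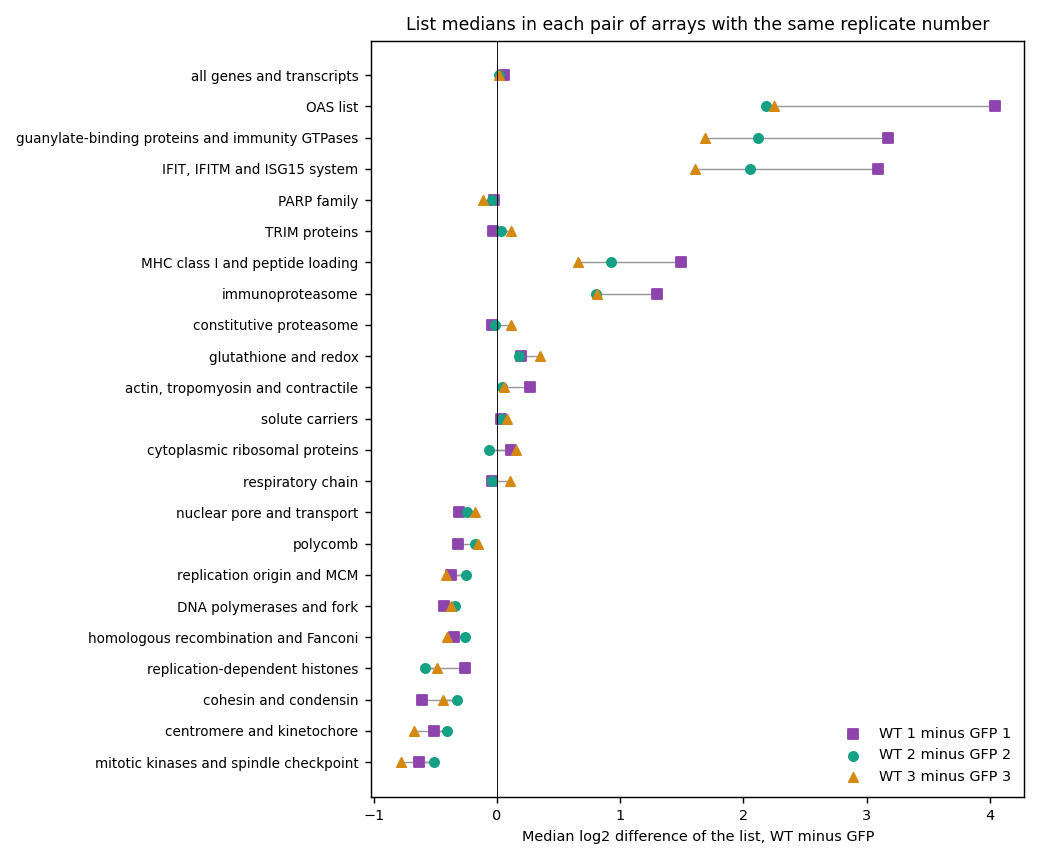
Median log2 difference between the WT and GFP arrays of the same replicate number, for all genes and for 22 gene families (rows), with a square for pair 1, a circle for pair 2 and a triangle for pair 3. The OAS, GTPase and IFIT lists lie to the right in each pair, from 1.61 to 4.04, and the lists of chromosome segregation lie to the left in each pair.

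Promoters were searched for 3 motifs, of which 2 are given with the cell cycle genes. The motif GAAANNGAAA, the core of the interferon-stimulated response element, was searched on both strands of the RefSeq promoters (GRCm38.p6, 250 bases before to 50 after the start of transcription). A promoter counted once however many matches it held, and matches could overlap each other. It was found in 425 of 11708 tested genes with a promoter (3.63%), in 81 of 1194 called higher (6.78%) and in 35 of 1378 called lower (2.54%). Among genes called at least 2-fold higher it was found in 48 of 259 (18.5%), and among those called at least 2-fold lower in 8 of 132 (6.06%). Of the GTPase genes 10 of 11 with a promoter held it, of the Ifi200 genes 4 of 5, of the IFIT, IFITM and ISG15 genes 9 of 18 and of the OAS genes 4 of 7, where lists hold measured members whether called or not. The windows below show in capitals the match farthest upstream in 8 genes that rose, to show how close to the start of transcription it lies and on which strand. Gbp3, Irgm1 and Ifit1 held 2 matches each and Isg15 held 3, so further matches stand in lower case. Among other genes called higher, the match began after the start in some. Of the 8 genes shown, the first 3 lie in one cluster on chromosome 3. A match describes these letters and does not show binding.
Gbp2: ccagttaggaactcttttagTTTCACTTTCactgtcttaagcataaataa
Gbp3: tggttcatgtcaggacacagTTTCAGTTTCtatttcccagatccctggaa
Gbp7: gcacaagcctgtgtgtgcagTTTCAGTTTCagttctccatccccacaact
Irgm1: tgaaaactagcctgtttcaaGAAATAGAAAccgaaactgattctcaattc
Ifit1: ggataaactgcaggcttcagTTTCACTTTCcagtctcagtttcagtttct
Isg15: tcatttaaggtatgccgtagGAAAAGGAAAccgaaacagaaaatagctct
Oas3: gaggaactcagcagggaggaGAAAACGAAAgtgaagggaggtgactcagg
Ifi207: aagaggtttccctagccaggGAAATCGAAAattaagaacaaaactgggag
These windows are chr3:142620584-142620633 (Gbp2, plus strand), chr3:142559979-142560028 (Gbp3, plus strand), chr3:142530263-142530312 (Gbp7, plus strand), chr11:48871421-48871470 (Irgm1, minus strand), chr19:34640765-34640814 (Ifit1, plus strand), chr4:156200867-156200916 (Isg15, minus strand), chr5:120777705-120777754 (Oas3, minus strand) and chr1:173741821-173741870 (Ifi207, minus strand). In all 8 the match began upstream of the start, 30 (Irgm1) to 104 bases (Ifit1) before it. Each window is written along the strand of its gene, so the repeat GAAA on the opposite strand appears as TTTC, as in the 3 Gbp genes and Ifit1.

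Among the regulators, the interferon regulatory factors had 4 of 12 called higher and none lower, 1 higher and 2 lower under median scaling. Irf7, which amplifies interferon production, had 0.49, 0.64 and -1.29 in WT, against -3.66, -1.60 and -3.84 in GFP, a change of 2.98 ± 0.37 (adjusted p = 0.0017, and 0.0624 without the block). Stat2, a factor that carries the signal, changed by 1.80 ± 0.31 (adjusted p = 0.00558, and 0.216 without the block). Of the 28 genes of interferon receptors, JAK kinases, STATs and SOCS proteins, 5 were higher and 5 (2 to 5) lower. The falls included Socs3, at -1.03 ± 0.13 (adjusted p = 0.00168, and 0.0837 without the block), and Socs5, at -0.75 ± 0.13 (adjusted p = 0.00593), both inhibitors of cytokine receptors, so the list moved both ways.

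In the PARP family 7 of 18 were higher and 2 lower, but 6 and 7 under median scaling. The rises were led by Parp14, at 2.92 ± 0.43 (adjusted p = 0.00298, and 0.117 without the block), Parp12, at 2.65 ± 0.34 (adjusted p = 0.0019, and 0.092 without the block), Dtx3l, at 2.44 ± 0.34 (adjusted p = 0.0026, and 0.0734 without the block), and Parp9, at 2.38 ± 0.31 (adjusted p = 0.0019, and 0.0803 without the block). The PARP enzymes modify proteins with ADP-ribose, and DTX3L is the partner of PARP9. Parp1 and Parp2, the DNA damage enzymes, were not called, with -0.19 and -0.20. The TRIM ubiquitin ligases had 13 of 43 higher and 4 lower. The largest rises were those of Trim30a, at 4.53 ± 0.52 (adjusted p = 0.00122, and 0.0604 without the block), and Trim30d, at 4.55 ± 0.58 (adjusted p = 0.0018, and 0.0597 without the block). Trim6 fell to -0.61, -0.81 and -0.92 in WT, against 0.98, 1.13 and 1.09 in GFP, a change of -1.85 ± 0.10 (adjusted p = 6.94e-05). Trim71, the LIN41 protein of stem cells, changed by -1.96 ± 0.41 (adjusted p = 0.0132, and 0.0646 without the block). The Schlafen family had 3 of 4 higher, led by Slfn8 at 2.11 ± 0.38 (adjusted p = 0.00707, and 0.121 without the block).

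Genes of antigen presentation were higher too, with smaller changes. MHC class I and its peptide loading complex had 10 of 19 members higher, none lower, with a median of 1.02, and 0 called without the replicate block. H2-K1, a classical class I heavy chain, had 3.24, 3.10 and 2.08 in WT, against 1.06, 1.86 and 1.30 in GFP, a change of 1.40 ± 0.27 (adjusted p = 0.00942, and 0.0768 without the block), and B2m, its light chain, changed by 1.01 ± 0.19 (adjusted p = 0.00854, and 0.216 without the block). The groups did not overlap for H2-K1, and GFP array 2 was again the highest control. Class I genes are near-identical to each other, so their probes may read more than 1 of them. The immunoproteasome, the interferon-inducible form that cuts peptides for class I, had 5 of 5 measured members higher, with a median of 0.90. Psmb10, one of its catalytic subunits, stood at 5.37, 5.24 and 5.28 in WT, against 4.47, 4.43 and 4.46 in GFP, a change of 0.84 ± 0.15 (adjusted p = 0.00722), with an SD of 0.0709 in WT and 0.0214 in GFP. Psme1, a subunit of its activator, changed by 0.84 ± 0.12 (adjusted p = 0.00242). The 30 subunits of the constitutive proteasome had 1 higher and 0 lower, with a median of 0.01 (0 and 1 under median scaling).

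Secreted immune proteins were called in both directions. Complement genes, which tag cells and microbes for lysis, had 6 of 17 higher and 0 lower, led by C4b at 1.42 ± 0.28 (adjusted p = 0.0101, and 0.132 without the block) and including C1rb, a mouse copy of the C1r protease, at 0.89 ± 0.13 (adjusted p = 0.00271). Of 17 chemokines, 5 (3 to 5) were higher and 3 lower (2 and 7 under median scaling). Cxcl10, which attracts activated T cells, had 3.31, 3.16 and 1.89 in WT, against -1.45, 0.63 and -0.28 in GFP, a change of 3.15 ± 0.42 (adjusted p = 0.00215), and Ccl5 rose by 2.43 ± 0.24 (adjusted p = 0.000737). Ccl2, which attracts monocytes, went the other way, with 5.44, 5.55 and 6.41 in WT, against 7.07, 7.42 and 7.61 in GFP, a change of -1.57 ± 0.14 (adjusted p = 0.000476). Its neighbour on the chromosome, Ccl7, changed by -1.04 ± 0.18 (adjusted p = 0.00574, and 0.24 without the block). The groups did not overlap for Cxcl10, Ccl5 or Ccl2. Among 8 TNF family ligands 4 were lower and 1 higher, with Tnfsf18 at -1.80 ± 0.20 (adjusted p = 0.00121) and Ltb, which makes lymphotoxin, at -1.12 ± 0.21 (adjusted p = 0.00796, and 0.309 without the block). The galectin list, named for proteins that bind galactose sugars at the cell surface, had 4 of 7 higher (2 under median scaling) and none lower. Its largest rise was that of Lgals3bp, at 1.81 ± 0.24 (adjusted p = 0.00193, and 0.0658 without the block), whose product binds a galectin and is not one itself. Lgals1, a galectin, changed by 0.58 ± 0.10 (adjusted p = 0.00588). Beside these genes of immunity, none of the 3 leukocyte markers was called: the log2 changes of Itgam, Cd3e and Csf1r were 0.16, 0.11 and -0.53, and their summed level was 13.9 to 21.5 in WT, against 14.9 to 23 in GFP. None of the 3 was below background on any of the 6 arrays.

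**Figure D3:**
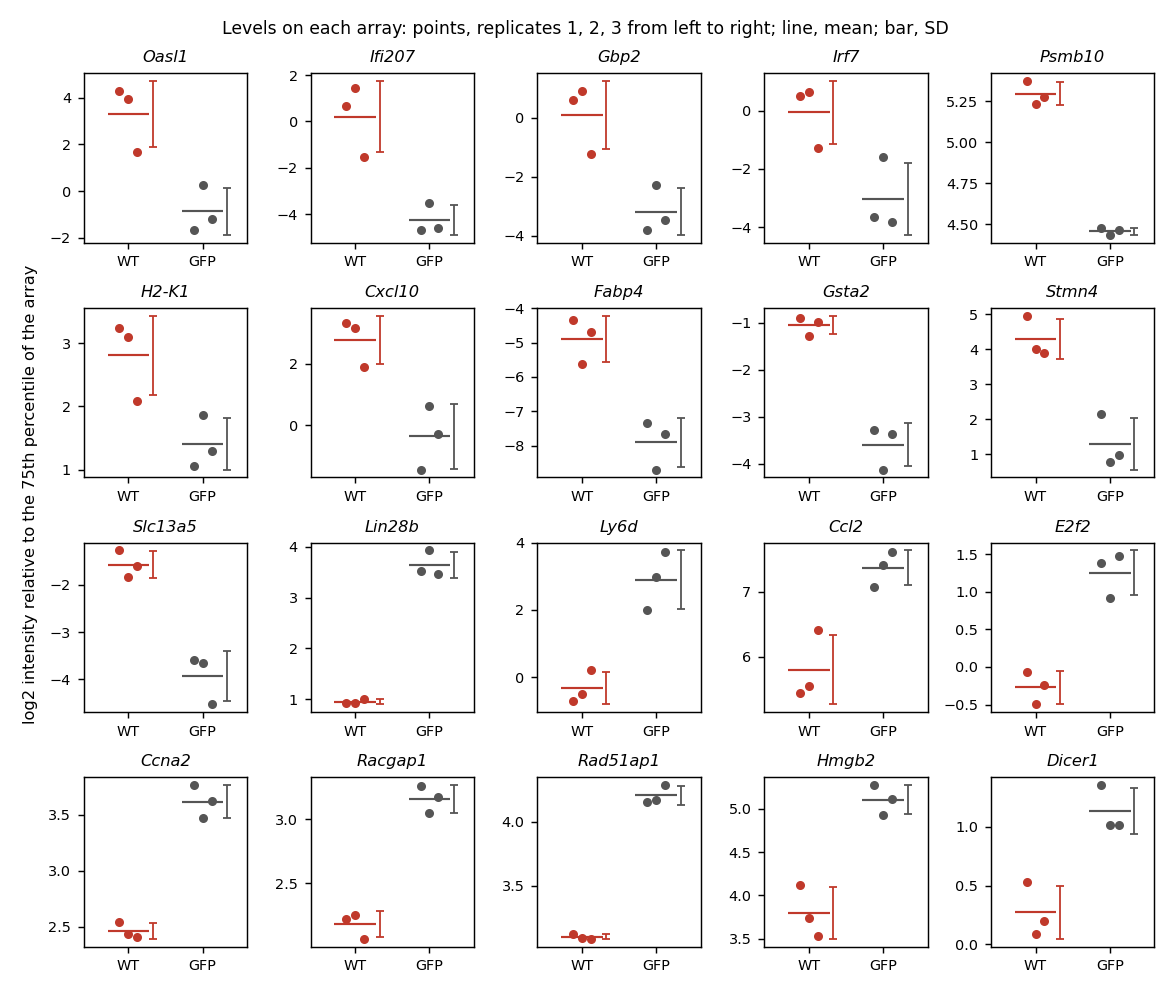
Levels of 20 genes on each array (log2 intensity over the array's 75th percentile), WT left in red and GFP right in grey, with replicates 1, 2 and 3 from left to right in each group, a line at the mean and a bar for the SD of 3 arrays. No gene shown has overlapping groups, and in Oasl1, Ifi207, Gbp2, Irf7, H2-K1 and Cxcl10 WT array 3 is the lowest of its group.

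Outside the immune genes the largest rises were single genes of many kinds. Cd200r2, a receptor-like protein of myeloid cells, was not well above background on any GFP array and rose to -3.40, -1.97 and -4.02 in WT, against -8.16, -8.72 and -7.33 in GFP. As the signal of a probe below background has only a bound, its change is given as at least 7.92-fold higher (adjusted p = 0.0024), the mean of the bright group over a floor set for each dim array at its dimmest detected probe, or at the probe's own signal where that was higher. Fabp4, a fatty acid carrier of fat cells and macrophages, was at least 2.36-fold higher by the same measure (adjusted p = 0.00025), with -4.33, -5.62 and -4.69 in WT, against -7.34, -8.70 and -7.67 in GFP. The groups did not overlap for either gene. Stmn4, a tubulin-binding protein of neurons, had 4.96, 4.01 and 3.89 in WT, against 2.14, 0.77 and 0.98 in GFP, a change of 2.99 ± 0.12 (adjusted p = 3.12e-05). Slc13a5, the citrate importer of the cell membrane, had -1.27, -1.84 and -1.61 in WT, against -3.58, -3.65 and -4.53 in GFP, a change of 2.35 ± 0.20 (adjusted p = 0.000397). Klk8, a secreted protease, changed by 2.33 ± 0.39 (adjusted p = 0.0054), a size that rests in part on 1 GFP array where it was not well above background. Tnni3, the inhibitory troponin of heart muscle, was called higher (adjusted p = 0.00944) and was well above background on 2 of 3 WT arrays and 0 of 3 GFP arrays, for which no fold is given.

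Genes that handle oxidants had more rises than falls on the scale of the 75th percentile. Of 62 measured, 19 (10 to 18) were higher and 1 lower, with a median of 0.27, and medians of 0.20, 0.18 and 0.35 in the 3 pairs. Under median scaling the counts were 5 higher and 4 lower. Gsta2, a glutathione transferase, stood at -0.90, -1.27 and -0.98 in WT, against -3.28, -4.13 and -3.37 in GFP, a change of 2.54 ± 0.20 (adjusted p = 0.000372). Gstk1, the mitochondrial and peroxisomal transferase, changed by 0.96 ± 0.08 (adjusted p = 0.000372), Sod3, the secreted superoxide dismutase, by 1.88 ± 0.33 (adjusted p = 0.0065, and 0.136 without the block), and Hmox1, heme oxygenase, by 1.19 ± 0.14 (adjusted p = 0.00123, and 0.0834 without the block). Gsr, which regenerates glutathione, was the only one called lower, at -0.48 ± 0.11 (adjusted p = 0.022, and 0.2 without the block). Genes of amino acid supply and the ATF4 response had 11 (6 to 11) of 39 higher and 2 lower (4 and 7 under median scaling). They included Trib3, a pseudokinase induced by ATF4, at 1.32 ± 0.18 (adjusted p = 0.00242, and 0.142 without the block), and Bcat1, which transfers the amino group of branched-chain amino acids, at 0.91 ± 0.14 (adjusted p = 0.00388), while Arg1, arginase, changed by -1.14 ± 0.18 (adjusted p = 0.00407, and 0.55 without the block). Fatty acid oxidation and peroxisome genes had 10 (4 to 10) of 60 higher and 1 lower (2 and 11 under median scaling), led by Acox2, an oxidase of branched fatty acids and bile acid precursors, at 1.27 ± 0.25 (adjusted p = 0.0107, and 0.129 without the block).

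Membrane and muscle genes gave more rises than falls, a split that turned with the scaling. Ion channels for sodium, calcium and chloride and of the TRP type had 18 of 79 higher and 8 (2 to 8) lower, but 7 and 14 under median scaling. Ano1, a chloride channel opened by calcium, changed by 1.54 ± 0.25 (adjusted p = 0.00489, and 0.271 without the block), Piezo2, the channel of touch, by 1.34 ± 0.26 (adjusted p = 0.00891, and 0.0948 without the block), and Cacna1s, the calcium channel of skeletal muscle, by -1.26 ± 0.13 (adjusted p = 0.000797, and 0.523 without the block). Of 270 solute carriers 40 (22 to 39) were higher and 23 (13 to 24) lower, and 14 and 56 under median scaling. Beside Slc13a5, the sugar transporters Slc45a1 and Slc2a10 changed by 1.59 ± 0.17 (adjusted p = 0.000919) and by 0.97 ± 0.17 (adjusted p = 0.006), and Slco3a1, an organic anion carrier, fell to 0.72, 0.74 and 1.19 in WT, against 1.68, 1.45 and 1.55 in GFP, a change of -0.68 ± 0.12 (adjusted p = 0.00737). The contractile list, of actins, troponins, myosin chains and their partners, had 13 of 62 higher and 4 lower, and 7 and 12 under median scaling. Of its falls Ldb3, a protein of the muscle Z-disc, changed by -0.75 ± 0.12 (adjusted p = 0.00502). G protein-coupled receptors had 18 of 93 higher and 9 lower (6 and 14 under median scaling). P2ry2, a receptor of extracellular nucleotides, changed by 1.06 ± 0.11 (adjusted p = 0.000897), and Adora2b, an adenosine receptor, by -0.95 ± 0.13 (adjusted p = 0.00242).

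Genes of the extracellular matrix were called in both directions. Collagens had 4 of 28 higher and 4 lower. Col4a1 and Col4a2, which form the main network of basement membranes, changed by 1.29 ± 0.16 (adjusted p = 0.00175, and 0.095 without the block) and by 1.31 ± 0.14 (adjusted p = 0.000864), whereas Col4a5, a chain of kidney and lens membranes, changed by -0.55 ± 0.08 (adjusted p = 0.00349) and Col7a1, the anchoring fibril of skin, by -1.21 ± 0.13 (adjusted p = 0.000874, and 0.0525 without the block). Among elastic fibre and proteoglycan genes 8 (5 to 9) of 34 were higher and 3 lower (6 and 6 under median scaling). Loxl3, an enzyme that cross-links collagen and elastin, rose by 1.00 ± 0.15 (adjusted p = 0.00308), and Dcn, the proteoglycan decorin, fell to 2.82, 3.17 and 2.13 in WT, against 4.37, 4.63 and 3.27 in GFP, a change of -1.38 ± 0.18 (adjusted p = 0.00186, and 0.315 without the block). Of 42 matrix proteases and inhibitors 8 were lower and 4 higher. Adamts9, a protease of proteoglycans, changed by -0.80 ± 0.11 (adjusted p = 0.00233), and Adam10, a sheddase of surface proteins, by -0.63 ± 0.13 (adjusted p = 0.0109). WNT signalling had 10 (6 to 9) of 51 higher and 4 lower (4 and 9 under median scaling). Fzd4, a receptor, changed by 0.94 ± 0.13 (adjusted p = 0.00271), and Lgr4, which strengthens WNT signals, by -0.87 ± 0.15 (adjusted p = 0.00639).

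The helix-loop-helix list held 8 rises and 3 falls of 55 (2 and 9 under median scaling). Its rises included the ID proteins, which block DNA binding by their partners, with Id3 at 1.32 ± 0.13 (adjusted p = 0.000771, and 0.278 without the block) and Id1 at 0.85 ± 0.10 (adjusted p = 0.00135, and 0.469 without the block). Mycn, a MYC factor of embryonic cells, stood at 3.37, 3.43 and 3.57 in WT, against 4.47, 4.06 and 4.69 in GFP, a change of -0.95 ± 0.11 (adjusted p = 0.00122), with no overlap.

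The largest falls were in single genes of many kinds. Lin28b, which blocks the maturation of let-7 microRNAs and is itself a textbook target of theirs, had 0.92, 0.92 and 1.01 in WT, against 3.53, 3.93 and 3.46 in GFP, a change of -2.70 ± 0.16 (adjusted p = 0.000147). Lin28a, its relative, changed by -2.55 ± 0.09 (adjusted p = 2.49e-05), and Nr6a1, an orphan nuclear receptor of germ cells and early embryos, by -2.61 ± 0.14 (adjusted p = 6.88e-05). For reference, the let-7 family shares the seed shown in capitals (bases 2 to 8, RefSeq, GRCm38.p6), and its levels were not analysed here.
mmu-let-7a-5p: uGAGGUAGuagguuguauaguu
mmu-let-7g-5p: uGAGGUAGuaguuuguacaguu
mmu-miR-98-5p: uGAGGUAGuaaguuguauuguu
These lie at chr13:48538239-48538260 (let-7a, minus strand), chr9:106178846-106178867 (let-7g, plus strand) and chrX:151913229-151913250 (miR-98, plus strand), and the family is shown because its seed pairs with sites that Lin28b is known to carry. Arid3a and Hic2, DNA-binding regulators, changed by -1.86 ± 0.16 (adjusted p = 0.00047) and by -1.62 ± 0.07 (adjusted p = 3.12e-05). Ly6d, a small anchored surface protein of epithelia and lymphocytes, had -0.71, -0.49 and 0.21 in WT, against 1.99, 2.97 and 3.74 in GFP, a change of -3.23 ± 0.17 (adjusted p = 6.88e-05). Epha4, a receptor for ephrins, changed by -1.65 ± 0.14 (adjusted p = 0.000431), and Aqp8, a water channel, by -2.35 ± 0.12 (adjusted p = 6.88e-05). The groups did not overlap for any of these 8 genes. Htr2c, a serotonin receptor, and Tgm5, a transglutaminase of skin, were well above background on all GFP arrays and on no WT array, so their falls have only a bound, at least 4.26-fold lower for Htr2c (adjusted p = 0.000625) and at least 3.65-fold lower for Tgm5 (adjusted p = 0.00108).

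Falls were most frequent, among the lists described, in the machinery of chromosome copying and segregation. Of 31 genes of mitotic kinases and the spindle checkpoint, 24 were lower and 1 higher, with a median of -0.66. The centromere and kinetochore, where chromosomes attach to the spindle, had 26 (17 to 25) of 33 lower and 1 higher (median -0.52), and cohesin and condensin, the rings that hold and fold chromosomes, 18 (9 to 18) of 24 lower and none higher (median -0.50). DNA polymerases and fork proteins had 23 (14 to 21) of 36 lower (median -0.38), origin licensing and MCM proteins 13 (4 to 14) of 27 (median -0.35), and homologous recombination and Fanconi repair 17 (9 to 17) of 34 (median -0.31), with no member of these 3 lists higher. The share lower was 8.61% among all genes and 11.7% among those with a symbol. Without WT array 1 these 6 counts were 23, 24, 11, 16, 10 and 15, and without the replicate block 13, 6, 5, 4, 1 and 8. The list medians were below that of all genes in each of the 3 pairs, as with -0.64, -0.51 and -0.78 for the mitotic kinases.

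Racgap1, which positions the cleavage furrow, had 2.23, 2.25 and 2.07 in WT, against 3.26, 3.05 and 3.18 in GFP, a change of -0.98 ± 0.09 (adjusted p = 0.000476). Aurkb, the kinase of the chromosomal passenger complex, changed by -0.97 ± 0.13 (adjusted p = 0.00218), and Bub1, a checkpoint kinase, by -0.97 ± 0.09 (adjusted p = 0.00051). Pttg1, securin, was the only one of its list called higher, at 0.45 ± 0.11 (adjusted p = 0.0221, and 0.281 without the block). At the kinetochore, Cenpi changed by -1.02 ± 0.14 (adjusted p = 0.00214), and Spc24 and Nuf2, subunits of the complex that grips microtubules, by -0.90 ± 0.10 (adjusted p = 0.00104) and -0.87 ± 0.10 (adjusted p = 0.00123). Smc4 and Smc2, the core of condensin, changed by -0.84 ± 0.14 (adjusted p = 0.0059) and -0.70 ± 0.13 (adjusted p = 0.00743). Kinesins had 12 of 33 lower and 2 higher, and the falls were led by Kif23, the motor of the central spindle, at -1.14 ± 0.12 (adjusted p = 0.000978). The rises were Kif7, which acts in cilia, at 0.50 ± 0.11 (adjusted p = 0.0193, and 0.271 without the block), and Kif5a, which acts in axons, at 0.48 ± 0.10 (adjusted p = 0.0115, and 0.0987 without the block).

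In replication and repair, Rad51ap1, a factor of homologous recombination, stood at 3.12, 3.09 and 3.08 in WT, against 4.16, 4.17 and 4.29 in GFP, a change of -1.11 ± 0.10 (adjusted p = 0.00053), with an SD of 0.018 in WT and 0.0726 in GFP. Exo1, an exonuclease of repair, changed by -1.06 ± 0.14 (adjusted p = 0.00186), and Fanci and Fancb, of the Fanconi pathway, by -0.94 ± 0.13 (adjusted p = 0.00262) and -0.99 ± 0.07 (adjusted p = 0.000273). Polq, the polymerase of end joining, changed by -1.46 ± 0.11 (adjusted p = 0.000309), Dna2, a nuclease of lagging strands, by -0.90 ± 0.12 (adjusted p = 0.00194), and Gins1, of the replicative helicase, by -0.64 ± 0.12 (adjusted p = 0.008). The MCM helicase subunits changed by less, with Mcm5 at -0.54 ± 0.10 (adjusted p = 0.00786, and 0.0946 without the block) and Mcm7 at -0.32 ± 0.08 (adjusted p = 0.0221, and 0.14 without the block). Checkpoint genes had 11 (6 to 11) of 19 lower and none higher. Wee1, which holds back entry to mitosis, and Cdc25a, which drives it, both changed in the same direction, by -1.03 ± 0.08 (adjusted p = 0.000372) and -1.20 ± 0.09 (adjusted p = 0.000273).

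Of 26 cyclins 12 were lower and 2 higher. Ccna2, cyclin A2, stood at 2.54, 2.43 and 2.41 in WT, against 3.76, 3.47 and 3.62 in GFP, a change of -1.15 ± 0.07 (adjusted p = 0.000164). Ccnf, a cyclin that serves as a ubiquitin ligase subunit, changed by -1.69 ± 0.11 (adjusted p = 0.000159). Ccnd1, cyclin D1, was one of the 2 higher, at 1.02 ± 0.13 (adjusted p = 0.00163, and 0.512 without the block). The E2F and RB family had 9 of 17 lower and none higher. E2f2, an activator, had -0.06, -0.50 and -0.24 in WT, against 1.38, 0.92 and 1.47 in GFP, a change of -1.52 ± 0.13 (adjusted p = 0.000376), and the repressors E2f7 and E2f8 changed by -1.20 ± 0.11 (adjusted p = 0.000551) and -1.35 ± 0.10 (adjusted p = 0.000325). Rb1, which restrains E2F factors, changed by -0.64 ± 0.07 (adjusted p = 0.00122), and of the kinase inhibitors Cdkn1b changed by -0.43 ± 0.09 (adjusted p = 0.0107, and 0.558 without the block) while Cdkn1a was not called, at 0.31. Replication-dependent histones, made in S phase, had 15 (8 to 23) of 38 lower and none higher (median -0.39), and 23 without WT array 1. Histone genes are near-identical, so their probes may read several.

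**Figure D4:**
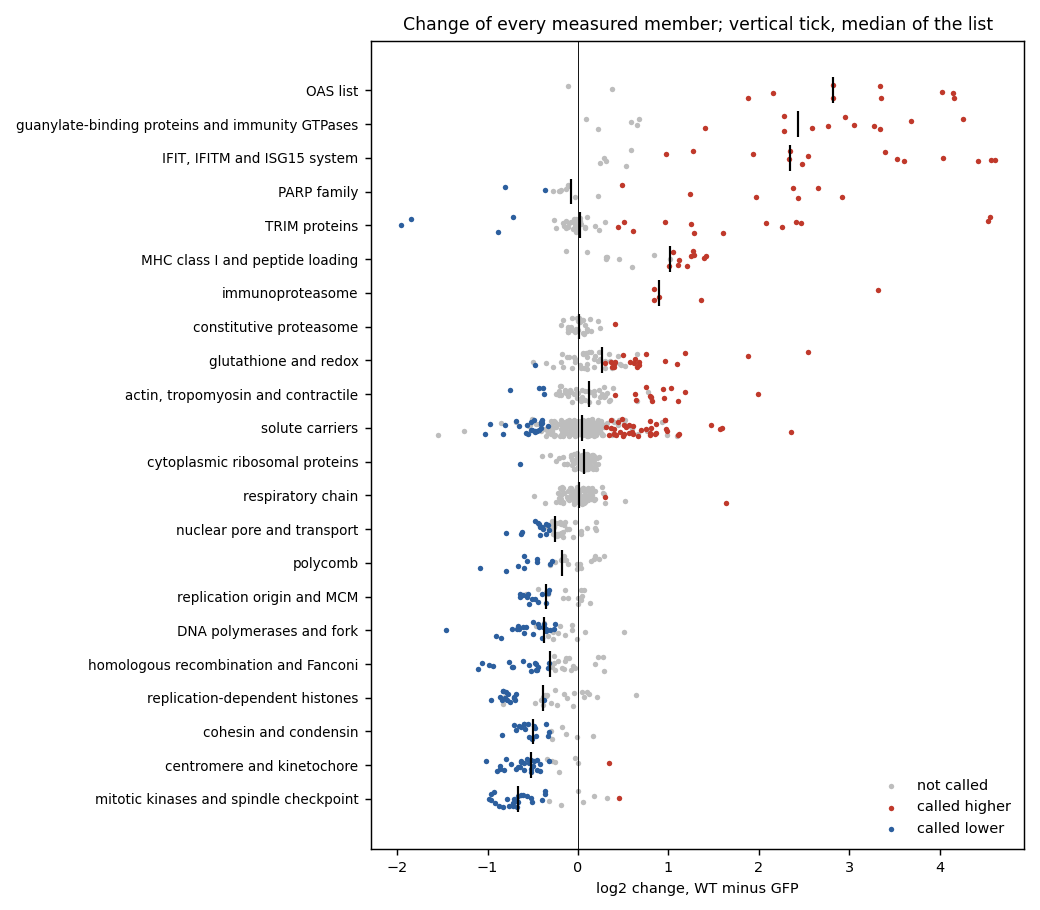
Log2 change (WT minus GFP) of every measured member of 22 gene families, with called members in red (higher) or blue (lower), others in grey, and a vertical tick at the median of each list. The OAS, GTPase and IFIT lists have medians between 2.34 and 2.82, the ribosomal and respiratory chain lists lie around 0, and the mitotic list has a median of -0.66.

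The promoters of these lists were searched for 2 other motifs. TTCCCGC, a form of the E2F site, was found on either strand in 8.99% of the 11708 promoters, but in 12 of 29 promoters of polymerase and fork genes (41.4%), 8 of 21 of origin and MCM genes (38.1%), 9 of 25 of recombination and Fanconi genes (36%), 6 of 18 of cohesin and condensin genes (33.3%), 9 of 29 of centromere genes (31%) and 3 of 13 of E2F and RB genes (23.1%). In kinesins it was found in 2 of 27 (7.41%), in mitotic kinase and checkpoint genes in 1 of 28 (3.57%) and in cyclins in 0 of 20. TTTGAA, the CHR element of genes expressed in late cell cycle, was found in 14.7% of all promoters, in 14 of 28 of mitotic kinase and checkpoint genes (50%), 6 of 13 of E2F and RB genes (46.2%), 8 of 18 of cohesin and condensin genes (44.4%), 11 of 29 of centromere genes (37.9%) and 10 of 27 of kinesins (37%). It was in 5 of 21 of origin and MCM genes (23.8%), 3 of 20 of cyclins (15%), 3 of 25 of recombination and Fanconi genes (12%) and 3 of 29 of polymerase and fork genes (10.3%), so the lists of replication and of mitosis did not separate fully by motif. In the interferon lists the CHR was in 5 of 11 of GTPase genes (45.5%), 4 of 18 of IFIT, IFITM and ISG15 genes (22.2%), 1 of 5 of Ifi200 genes and 1 of 7 of OAS genes, and the E2F motif in 1 promoter, of the IFIT list. Over all genes called lower the E2F motif was in 13.2% and the CHR in 18.9%, and over all called higher in 6.87% and 13.1%. Matches of the motifs may overlap each other, and these shares describe the lists whether or not a member was called. Windows from 3 genes of each kind that fell show in capitals the match farthest upstream, the first 3 for the E2F motif and the last 3 for the CHR. Pola1, Ccnb2 and Smc2 held 2 matches each. In many other called genes of these lists the match began at or after the start of transcription. Examples are Polq (10 bases after) and Fanci (18) for the E2F motif and Racgap1 (5) for the CHR. The 6 windows shown thus do not stand for the position in the lists.
Cdc6: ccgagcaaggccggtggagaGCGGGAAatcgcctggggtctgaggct
Pola1: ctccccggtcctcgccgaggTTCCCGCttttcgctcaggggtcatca
Fancb: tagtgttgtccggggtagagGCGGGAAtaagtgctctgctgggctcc
Ccnb2: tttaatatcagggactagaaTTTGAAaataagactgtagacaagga
Smc2: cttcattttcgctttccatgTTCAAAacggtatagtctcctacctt
Espl1: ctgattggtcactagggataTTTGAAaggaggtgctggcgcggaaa
They are chr11:98907993-98908039 (Cdc6, plus strand), chrX:93632298-93632344 (Pola1, minus strand), chrX:164980400-164980446 (Fancb, plus strand), chr9:70421696-70421741 (Ccnb2, minus strand), chr4:52439056-52439101 (Smc2, plus strand) and chr15:102296246-102296291 (Espl1, plus strand), and all 6 matches lay upstream of the start of transcription, the nearest 27 bases before it in Espl1 and the farthest 172 in Fancb. Cdc6 changed by -0.51 ± 0.10 (adjusted p = 0.0092, and 0.377 without the block), Pola1 by -0.85 ± 0.13 (adjusted p = 0.00311, and 0.076 without the block), Ccnb2 by -0.95 ± 0.09 (adjusted p = 0.000638) and Espl1 by -0.79 ± 0.12 (adjusted p = 0.00403).

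Each list of chromatin regulators had more falls than rises, while the RNA lists differed. Polycomb genes, which silence developmental loci, had 10 (6 to 11) of 29 lower and none higher. Ezh2, the methyltransferase of the complex, changed by -0.60 ± 0.07 (adjusted p = 0.00158), and Cbx2, a reader of its mark, by -0.80 ± 0.07 (adjusted p = 0.00053). Histone methyltransferases had 13 (6 to 14) of 43 lower and none higher, with Setd7 at -0.92 ± 0.11 (adjusted p = 0.00163), and histone demethylases 6 (2 to 6) of 24 lower and none higher. Nucleosome remodellers had 12 (5 to 10) of 42 lower and 1 higher. The HMG proteins, which bend DNA and loosen nucleosomes, had 6 (3 to 6) of 13 lower and 1 higher. Hmgb2 had 4.12, 3.74 and 3.53 in WT, against 5.27, 4.93 and 5.11 in GFP, a change of -1.31 ± 0.11 (adjusted p = 0.000376), and Hmga1 was the one called higher, at 0.67 ± 0.09 (adjusted p = 0.00232). The list of DNA methyltransferases and TET enzymes had 6 (3 to 5) of 16 lower and 2 higher, with a median of -0.03. Of its falls, Dnmt3b, which sets new DNA methylation, changed by -0.90 ± 0.13 (adjusted p = 0.00267), and Dnmt1, which copies it, by -0.65 ± 0.10 (adjusted p = 0.00384).

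Nuclear pores and transport receptors had 14 (6 to 15) of 51 lower and none higher, with Kpna2, an importin, at -0.80 ± 0.12 (adjusted p = 0.00289), and Nup35, a pore subunit, at -0.63 ± 0.09 (adjusted p = 0.00254). The mitochondrial ribosomal proteins had 6 (2 to 6) of 74 higher and 1 lower (0 and 8 under median scaling), tRNA synthetases 3 of 38 higher and none lower (0 and 4 under median scaling), and DEAD and DEAH box helicases 3 of 49 higher and 5 (1 to 4) lower. Splicing factors of the SR, hnRNP and related classes had 17 (8 to 17) of 64 lower and 2 higher. Celf1, which binds GU-rich RNA, fell by 1.00 ± 0.08 on the log2 scale (adjusted p = 0.000341). Rbfox3, the neuronal splicing factor, was one of the 2 higher, at 2.13 ± 0.38 (adjusted p = 0.00703, and 0.0853 without the block), and was well above background on 2 of 3 GFP arrays. The deadenylases and decay factors had 10 of 42 lower and 1 higher. Cnot6 and Cnot6l, catalytic subunits that shorten poly(A) tails, changed by -0.91 ± 0.10 (adjusted p = 0.00113) and -0.72 ± 0.12 (adjusted p = 0.00495). Among 21 microRNA pathway genes 9 were lower and 2 higher, with Tnrc6a, the scaffold of silencing, at -1.17 ± 0.10 (adjusted p = 0.000469) and the interferon-inducible editing enzyme Adar at 1.72 ± 0.26 (adjusted p = 0.00344, and 0.0627 without the block).

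Growth signalling lists differed in direction. The EGF, PDGF, VEGF and HGF ligands had 3 higher and 0 lower of 23, receptor tyrosine kinases 4 higher and 3 lower of 29 and ligands of the TGF-beta family 3 higher and 2 lower of 28, against 0 and 5, 1 and 8 and 2 and 3 under median scaling. The IGF system had 5 of 16 lower and none higher, including the receptors Igf1r at -0.76 ± 0.11 (adjusted p = 0.00274) and Igf2r at -0.65 ± 0.08 (adjusted p = 0.00165). The PI3K, AKT and mTOR list had 12 (6 to 11) of 55 lower and 4 higher. Phlpp2, a phosphatase of AKT, changed by -1.08 ± 0.08 (adjusted p = 0.000318), and Pik3cb, a catalytic subunit of PI3K, by -0.82 ± 0.08 (adjusted p = 0.000551). Falls were thus called both in a member that drives the pathway and in one that restrains it, and Pik3r5, a regulatory subunit, changed by 0.87 ± 0.14 (adjusted p = 0.00455). Of 32 cholesterol genes 10 (5 to 10) were lower and 2 higher, with Insig1, which restrains sterol synthesis, at -0.74 ± 0.14 (adjusted p = 0.00982, and 0.27 without the block). Nuclear receptors had 7 of 38 lower and 4 higher, and the BTB zinc finger factors 7 (2 to 7) of 40 lower and none higher.

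Other signalling and transcription lists were called in both directions. Of 44 MAP kinases and the kinases above them 5 (3 to 5) were higher and 7 (4 to 8) lower. Mapk13, the p38 delta kinase, stood at -1.33, -1.82 and -1.77 in WT, against -3.54, -3.48 and -3.39 in GFP, a change of 1.82 ± 0.22 (adjusted p = 0.00151), whereas Map3k1, which acts above JNK, changed by -0.78 ± 0.08 (adjusted p = 0.000897) and Braf, which acts above ERK, by -0.46 ± 0.08 (adjusted p = 0.00571). The groups did not overlap for these 3 genes. In the TGF-beta list 5 of 31 were higher and 6 (3 to 6) lower (2 and 14 under median scaling). Fstl1, a secreted glycoprotein that binds BMP ligands, had 1.92, 2.37 and 2.63 in WT, against 0.29, 0.79 and 0.39 in GFP, a change of 1.82 ± 0.17 (adjusted p = 0.000594). Fstl3, which binds activins, changed by 0.94 ± 0.10 (adjusted p = 0.00083), and the receptors Acvr2b and Tgfbr2 changed by -1.17 ± 0.10 (adjusted p = 0.000376) and -0.69 ± 0.08 (adjusted p = 0.00122), so secreted binders were higher where these receptors were lower. The AP-1, ATF and C/EBP factors had 8 of 38 higher and 3 lower, but 1 and 8 under median scaling, with Nfe2l3, a factor related to NRF2, at 0.67 ± 0.11 (adjusted p = 0.00521). Among KLF, SP and EGR factors 6 (2 to 6) of 27 were lower and 1 higher. Of interleukin receptor genes 5 of 27 were higher and 5 (3 to 5) lower, among them Il6ra, the IL-6 receptor, at -1.14 ± 0.13 (adjusted p = 0.0013), and Il17rc, a subunit of the IL-17 receptor, at 0.71 ± 0.10 (adjusted p = 0.00311). G protein subunits and RGS proteins had 8 of 39 higher and 2 lower (3 and 4 under median scaling), and the rises included the gamma subunits Gng2 at 1.42 ± 0.12 (adjusted p = 0.000469) and Gng13 at 1.15 ± 0.14 (adjusted p = 0.00163).

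In 3 lists of enzymes of sugars and lipids most members were not called, and the calls were mostly higher on the scale of the 75th percentile and mostly lower under median scaling, unlike those of the cholesterol genes, mostly lower on both scales. Glycosyl- and sialyltransferases had 17 (6 to 16) of 90 higher and 9 (3 to 8) lower, against 3 and 20 under median scaling. B4galnt2, which makes the Sd(a) antigen, changed by 1.47 ± 0.18 (adjusted p = 0.00158), and Galnt12, which starts O-linked chains, by -0.84 ± 0.16 (adjusted p = 0.00978). The P450 and dehydrogenase list had 18 (5 to 16) of 112 higher and 6 lower, against 5 and 17 under median scaling. Of the enzymes of sphingolipids and phospholipids 11 (4 to 11) of 64 were higher and 5 (2 to 5) lower, against 3 and 14 under median scaling. Pla2g4e, a cytosolic phospholipase, was well above background on all WT arrays and on no GFP array, and was at least 3.16-fold higher (adjusted p = 0.000757). Sgpp1, a phosphatase of sphingosine phosphate, changed by -0.63 ± 0.09 (adjusted p = 0.00318).

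Membrane traffic and ubiquitin removal had 13.7% and 13.8% of members lower, near the 11.7% of all genes with a symbol. Of 219 sorting nexins, VPS proteins, syntaxins and coat proteins 30 (18 to 29) were lower and 14 (4 to 13) higher. Stx3, a syntaxin of the apical membrane, stood at 3.03, 2.69 and 3.06 in WT, against 4.09, 4.04 and 3.78 in GFP, a change of -1.04 ± 0.18 (adjusted p = 0.00579). Ap3m1, a subunit of the AP-3 adaptor, changed by -0.77 ± 0.11 (adjusted p = 0.00242), and Snx15, a sorting nexin, by 0.78 ± 0.12 (adjusted p = 0.0039). Of 65 deubiquitinases 9 (5 to 12) were lower and 2 higher, and the rises were Usp18, which removes ISG15, at 3.40 ± 0.48 (adjusted p = 0.00267, and 0.095 without the block), and Uchl1, a neuronal hydrolase, at 0.42 ± 0.12 (adjusted p = 0.0487, and 0.693 without the block). Usp25, the closest relative of Usp28, changed by -0.81 ± 0.18 (adjusted p = 0.0148). In the nuclear envelope Lmnb1, lamin B1, had 1.51, 1.13 and 1.41 in WT, against 2.30, 2.74 and 2.75 in GFP, a change of -1.25 ± 0.15 (adjusted p = 0.0016), with no overlap. The axonemal and ciliary list, which holds many genes named only by WD40, TPR or coiled-coil motifs, had 18 (8 to 16) of 231 higher and 23 (10 to 25) lower, near the share of all genes. Dnaic2, an intermediate chain of axonemal dynein, changed by 1.44 ± 0.11 (adjusted p = 0.000372). The Zfp zinc finger genes, the largest list, had 26 (9 to 26) of 347 higher (7.49%) and 33 (15 to 33) lower (9.51%), also near the 9.18% and 8.61% of all genes.

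**Figure D5:**
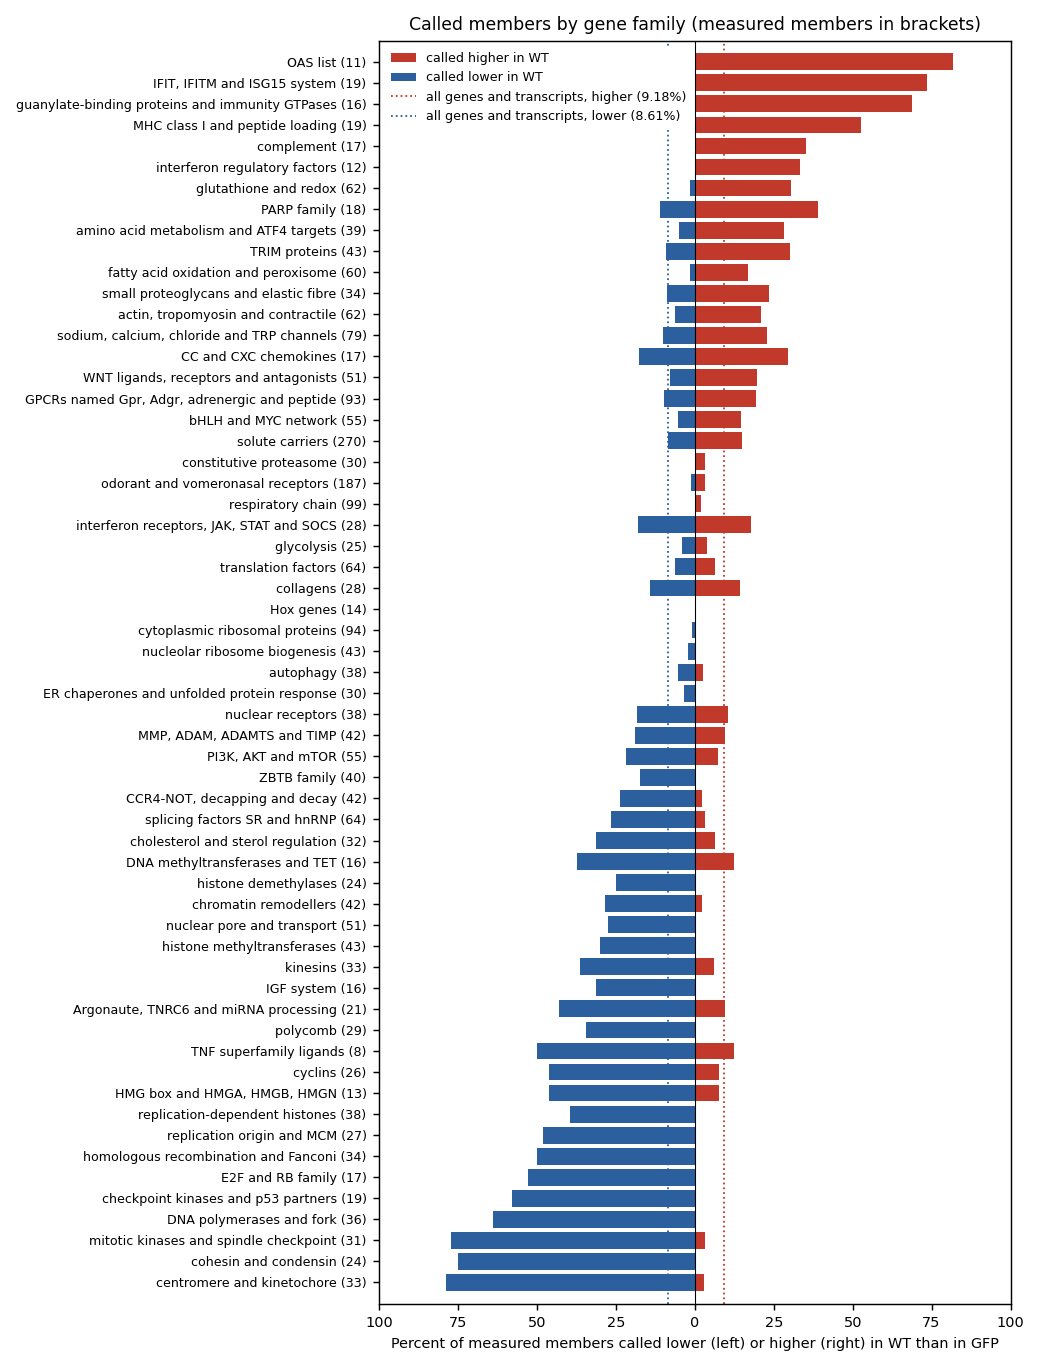
Percent of the measured members of each gene family called higher in WT (red, to the right) or lower in WT (blue, to the left) on the scale of the 75th percentile, with the shares over all genes as dotted lines (9.18% higher, 8.61% lower) and the number of measured members in brackets. Families of interferon genes lie at the top, those of replication and mitosis at the bottom, and ribosomal, respiratory chain and Hox genes have few calls or none.

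The counts of these lists were lower without the replicate block, where 1.19% of all genes were called higher and 1.76% lower. Of the immune lists, the immunoproteasome then had 2 higher, complement 1 higher, galectins 1 higher, chemokines 2 higher and 1 lower, TRIM proteins 1 higher and 1 lower, the receptor, JAK, STAT and SOCS list 1 higher and 1 lower, interleukin receptors 1 higher and 1 lower and TNF ligands 1 lower, with no call among PARP, Schlafen and IRF genes. Of the cycle lists, the E2F and RB family had 6 lower, kinesins 6 lower, cyclins 5 lower, histones 5 lower and checkpoint genes 3 lower. Of the chromatin lists, remodellers had 1 higher and 4 lower, HMG proteins 1 higher and 2 lower, histone methyltransferases 3 lower, polycomb 2 lower and demethylases none. The list of DNA methyltransferases and TET enzymes had 3 lower. Of the RNA lists and nuclear pores, the microRNA pathway had 6 lower, nuclear pores 4 lower, splicing factors 3 lower and decay factors 3 lower. Among membrane proteins, solute carriers had 8 higher and 6 lower, G protein-coupled receptors 3 higher and 5 lower and channels 1 lower, so receptors had more falls than rises in that fit. In metabolism, redox genes had 2 higher, amino acid genes 1 higher, glycosyltransferases 3 higher and 1 lower and lipid enzymes 2 higher and 1 lower, with none in the fatty acid oxidation and P450 lists. Of matrix and signalling lists, collagens had 2 higher and 1 lower, proteoglycans 2 higher and 0 lower, matrix proteases 0 higher and 3 lower, contractile genes 1 higher and 1 lower, WNT genes 1 higher and 1 lower, TGF-beta genes 2 higher and 2 lower, MAP kinases 1 higher and 2 lower, PI3K and mTOR genes 1 higher and 3 lower, G proteins 4 higher and 0 lower and IGF genes 3 lower. Membrane traffic genes had 1 higher and 3 lower, deubiquitinases 2 lower, ciliary genes 5 higher and 7 lower and Zfp genes 2 higher and 8 lower.

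Large families of housekeeping genes had fewer calls than the 17.8% of all genes. Of 94 genes taken by name as cytoplasmic ribosomal proteins 1 was called, Rps6ka6 at -0.64 ± 0.11 (adjusted p = 0.00529, and 0.0822 without the block), which is a kinase that the name pattern also took. The respiratory chain had 2 of 99 higher and none lower (1 and 13 under median scaling), among them Cox6a2, the heart and muscle form of a cytochrome oxidase subunit, at 1.63 ± 0.15 (adjusted p = 0.000551, and 0.0578 without the block). Nucleolar ribosome assembly had 1 of 43 called, the chaperones of the endoplasmic reticulum 1 of 30, autophagy 1 higher and 2 lower of 38, glycolysis 1 higher and 1 lower of 25 and translation factors 4 higher and 4 lower of 64. Under median scaling, nucleolar ribosome assembly had 0 higher and 11 lower, and translation factors 1 and 13. The counts there were 0 and 7 for cytoplasmic ribosomal proteins, 0 and 4 for the chaperones, 0 and 6 for autophagy and 0 and 4 for glycolysis. Those of all genes were 744 and 5043. None of the 14 measured Hox genes was called. Odorant and vomeronasal receptors, which most tissues do not express, had 6 (3 to 8) higher and 2 lower of 187 called, but 2 and 14 under median scaling.

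The labelled origin and other cell types were checked by their markers. Of 8 epithelial markers 1 was higher and none lower, namely Krt19 at 0.50 ± 0.11 (adjusted p = 0.016, and 0.362 without the block), and of 5 oviduct markers 1 was higher, namely Emx2 at 0.42 ± 0.09 (adjusted p = 0.0135, and 0.184 without the block). Under median scaling the epithelial list had 0 higher and 2 lower and the oviduct list 0 and 1. The oviduct markers Ovgp1, Wt1, Lhx1 and Emx2 were well above background on all 6 arrays and Pax2 on 2 of 3 WT and 2 of 3 GFP arrays. Of 7 mesenchymal markers 2 were higher and 3 lower. Pdgfra, a growth factor receptor, had -0.92, -0.88 and -0.91 in WT, against 0.13, 0.05 and -0.18 in GFP, a change of -0.91 ± 0.08 (adjusted p = 0.000503), and Vim, vimentin, changed by -0.77 ± 0.08 (adjusted p = 0.000919, and 0.285 without the block), while Pdgfrb, the related receptor, changed by 0.74 ± 0.14 (adjusted p = 0.008, and 0.102 without the block). Smooth muscle markers had 3 of 6 higher and none lower, 1 under median scaling, with Cnn1, calponin, at 1.11 ± 0.16 (adjusted p = 0.00298, and 0.647 without the block) and Acta2, smooth muscle actin, at -0.01 and not called. None of 3 endothelial or 5 gonadal markers was called. The summed level of the epithelial markers was 223 to 382 in WT, against 258 to 415 in GFP, that of the oviduct markers 35.2 to 38.3 in WT, against 38.4 to 48.3 in GFP, that of the smooth muscle markers 76.1 to 181 in WT, against 34.1 to 141 in GFP, and that of the mesenchymal markers 130 to 224 in WT, against 126 to 226 in GFP, each the range over 3 arrays of the summed intensity in units of the 75th percentile. All 8 epithelial markers but Cldn4 and all 7 mesenchymal markers were well above background on all 6 arrays, and the part of cell composition in the results was not tested.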

How the data were processed

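RNA of 12 samples, 3 of each group, was labelled with Cy3 and hybridized to 1-colour Agilent mouse arrays. The intensity of each spot, background-subtracted, comes from the authors' deposited scanner files, whose headers name Agilent Feature Extraction 11.0.1.1 and the grid build mm9. The flags of 0 or 1 for signals well above background and for saturation are deposited in the same files per the file headers. No non-control spot was saturated. The authors' deposited value table holds log2 values and served as an alternative, since no source used here gives its scaling.

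Of 62976 spots, 3671 control spots were left out. Intensities were divided by each array's 75th percentile over the other spots and log2-transformed. Spots of a probe were averaged, probes well above background on all 3 arrays of at least 1 group of the 4 were kept, and the probe with the highest mean stood for its gene, which left 24183 genes and transcripts, 14731 of them with a symbol. Genes were fitted with limma 3.58.1 in R 4.3.3 on all 12 arrays, which share 1 estimate of the spread, with the group and the replicate number as terms and Benjamini-Hochberg adjustment, a call being an adjusted p under 0.05. The numbers in the labels' titles pair the arrays: the deviations of WT and GFP arrays of the same number from their group means correlated at 0.778, 0.664 and 0.640 for numbers 1, 2 and 3. The numbers also follow the slides, number 1 on slide 1 and numbers 2 and 3 on slide 2. The number of arrays limits the precision. The fit was tested on data simulated from the same model, which cannot show whether the replicate term suits the real arrays.

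Named genes were the 25 largest rises and 25 largest falls called with and without the replicate number and without overlap between the groups, Dicer1, the 2 smallest p of a list with no call, and up to 4 called genes in each direction from each of 155 lists of gene families and markers. Within a list, genes called both with and without the replicate number came first, then those with the largest changes. The members and the lists were chosen with earlier results of these data known. Also named, after their values were seen, were 2310065F04Rik, AW011738, Acta2, B2m, Cd3e, Cdc6, Cdkn1a, Cerox1, Espl1, Gbp3, Gbp7, Has2os, Ifit1, Ifit2, Isg15, Mcm5, Mcm7, Oas3, Parp1, Parp2, Pola1, Rb1, Snhg5, Snhg7 and Tslrn1. Some members of these lists are not reported here. Alternatives covered the block, the arrays in the fit, background correction, scaling, the filter, the probe rule, the deposited table and leaving out each array.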

Additional observations from a re-analysis of the deposited data

How the results depend on the processing

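The count of 4300 called genes depended on the fit. With no replicate block, that is without pairing the arrays by number, 713 genes were called, with slide as the block 2112, with only the WT and GFP arrays in the fit and the replicate block 1224, with only slide 2 and the replicate block 1619, and with no filter on dim probes 2531. The causes of these differences were not tested. The fits of WT and GFP or of slide 2 alone also held fewer arrays. Leaving out each of the 12 arrays gave 2328 to 4035 genes, the lowest without GFP replicate 3 and the highest without D1709N replicate 1, and 2541 without GFP replicate 1. Other settings stayed within 1.5 times: normexp with quantile normalization 4464 (1988 higher, 2476 lower), quantile normalization 4196 (1828 higher, 2368 lower), median scaling 5787 (744 higher, 5043 lower) and, from the deposited table, 4371 (1901 higher, 2470 lower). Of the 184 called genes named in the text, 120 were also called without the block, 151 with slide as the block, 129 with the WT and GFP arrays alone and 151 on slide 2 alone, and none changed direction under any setting tried. Genes called without the block were preferred in the naming, so the 120 does not measure how well calls hold. Of all 4300 called genes, 713 were called without the block. Leaving out 1 array lost the call of 13 named genes: Adam10 (without GFP replicate 1), Cdkn1b and Kif5a (GFP replicate 3), Usp25 (WT replicate 2), Gbp7 (GFP replicate 1 or 3), Krt19 (WT replicate 3 or GFP replicate 1), Emx2 (WT replicate 2, GFP replicate 2 or 3), Trim71 (WT replicate 3, GFP replicate 2 or 3), Mcm7 (WT replicate 1 or 3, GFP replicate 1 or 3), Gsr, Kif7 and Pttg1 (either of 2 WT arrays or any GFP array) and Uchl1 (8 of the 12 arrays). Signals below background limit the low end: a change is given as a bound where a probe was below background on every array of a group, and where it was so on some arrays only, as for Ifnb1, the fitted size is printed and is uncertain.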

Other observations

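Long noncoding RNAs were called higher more often than lower, with 54 higher (15.6%) and 12 lower (3.46%) of 347 and a median log2 change of 0.15. Without the replicate block 5 were called higher and 2 lower, and under median scaling, with the block, 16 and 35. Those given here were chosen after their values were seen. AW011738 stood at -3.38, -4.58 and -5.91 in WT, against -6.58, -7.28 and -7.71 in GFP, and was well above background on 2 of 3 WT arrays and 0 of 3 GFP arrays, for which no fold is given. Snhg5 and Snhg7, host transcripts of small nucleolar RNAs, changed by 0.52 ± 0.09 (adjusted p = 0.00733, and 0.422 without the block) and by 0.59 ± 0.10 (adjusted p = 0.0055, and 0.0678 without the block). Cerox1, which is known to regulate genes of respiratory complex I, changed by 0.64 ± 0.10 (adjusted p = 0.00333, and 0.308 without the block). Has2os, on the opposite strand of the hyaluronan synthase gene Has2, changed by 0.92 ± 0.16 (adjusted p = 0.00564, and 0.387 without the block), with 2 of 3 GFP arrays well above background, and whether its probe also reads Has2 transcripts was not tested. Tslrn1 was lower, at -1.11 ± 0.18 (adjusted p = 0.00522, and 0.1 without the block).

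Growth factors of the FGF family were called in both directions, 3 higher and 3 lower of 13. Fgf1, a ligand of all FGF receptors, had -2.58, -2.94 and -2.14 in WT, against -3.64, -3.66 and -3.59 in GFP, a change of 1.08 ± 0.19 (adjusted p = 0.00614). Fgf18, a ligand of cartilage and bone growth, had 4.08, 3.47 and 3.39 in WT, against 5.01, 4.27 and 4.34 in GFP, a change of -0.90 ± 0.10 (adjusted p = 0.00123, and 0.093 without the block). The groups did not overlap for either gene. Fgf16 was well above background on all 3 WT arrays and on no GFP array.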
